A study of Mus musculus with 6 samples.

Results

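AMP-activated protein kinase (AMPK) is built from 3 kinds of subunit, and the mouse genome encodes 7 of them: the catalytic alpha subunits Prkaa1 and Prkaa2, the scaffold beta subunits Prkab1 and Prkab2, and the nucleotide-binding gamma subunits Prkag1, Prkag2 and Prkag3. These 7 genes, taken by symbol, are described here out of 22036 listed genes. They were read in the quadriceps femoris, the large front thigh muscle, of mice carrying a knockout of Prr14 (Prr14-KO, KO) and of wild-type mice (Prr14-WT, WT), in 3 nanopore cDNA libraries of each genotype. PRR14 is a nuclear periphery protein that anchors heterochromatin to the lamina, and the series title links it to myofibre identity through MEF2C. The sources used here do not give the age and sex of the mice, the knockout allele, or whether each library is a separate animal, so every p-value is set against the spread of these libraries only, which may be technical.

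AMPK senses a falling energy charge. AMP and ADP bind the gamma subunit, the beta subunit holds the complex together and binds glycogen, and the alpha subunit phosphorylates targets that raise fuel uptake and fat oxidation and slow synthesis. Muscle fibres express particular combinations. Prkaa2 and Prkab2 are the main alpha and beta genes of skeletal muscle, and Prkag3 is largely restricted to fast glycolytic fibres, so these 3 are called the fast-muscle isoforms below.

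Libraries held 1436099 to 1712975 read counts. Levels are CPM, counts per 1e6 reads of a library after TMM scaling, listed in the order of replicates 1, 2 and 3. A value after ± is the SD of 3 libraries. A gene was called where the Benjamini-Hochberg adjusted p of edgeR's quasi-likelihood test over all 6680 tested genes was under 0.05. By this rule 199 genes were higher in KO (2.98%) and 219 lower (3.28%), 6.26% in all. Scaling by library totals shifted the median log2 fold change over tested genes from 0.017 to 0.25 and gave 653 higher and 148 lower calls, so directions below hold on the TMM scale. The targeted gene itself was shallow, with 9, 11 and 12 reads in the WT libraries and 4, 10 and 3 in the KO libraries (log2 fold change -1.10, SE 0.46, edgeR adjusted p = 0.196). In CPM all 3 KO libraries (2.45, 6.25 and 1.72) lay below those of WT (6.57, 7.50 and 8.22), but the gene did not pass. A loss of Prr14 transcript was therefore not established, and the part of the gene removed is not known here.

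Of the 7 subunit genes, Prkaa2 fell in KO muscle and the other 6 did not pass. That is 1 call of 7, where 6.26% of all tested genes were called. All 7 passed the filter on low counts, which asks for enough reads in as many libraries as a genotype has. Prkag2 held under the minimum count of 10 in every WT library. Prkaa1 held 9 reads in WT replicate 1, and Prkab1 held 8 and 7 in WT replicates 1 and 2. Prkag2, Prkaa1 and Prkab1 therefore passed only with their KO libraries. KO and WT libraries were fully separate for Prkaa2 (KO lower) and Prkag2 (KO higher), which is 2 of 7, against 25.8% of all tested genes. All 3 fast-muscle isoforms had a negative log2 fold change, as had 3209 of all 6680 tested genes. That of Prkag3 was -0.023 with library totals. Of the other 4, Prkag1 had a negative one, which turned positive with library totals (0.078). Prkaa1, Prkab1 and Prkag2, which needed their KO libraries to pass the filter, had a positive one. That of Prkab1 turned negative without WT replicate 1 or 2.

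**Figure D1:**
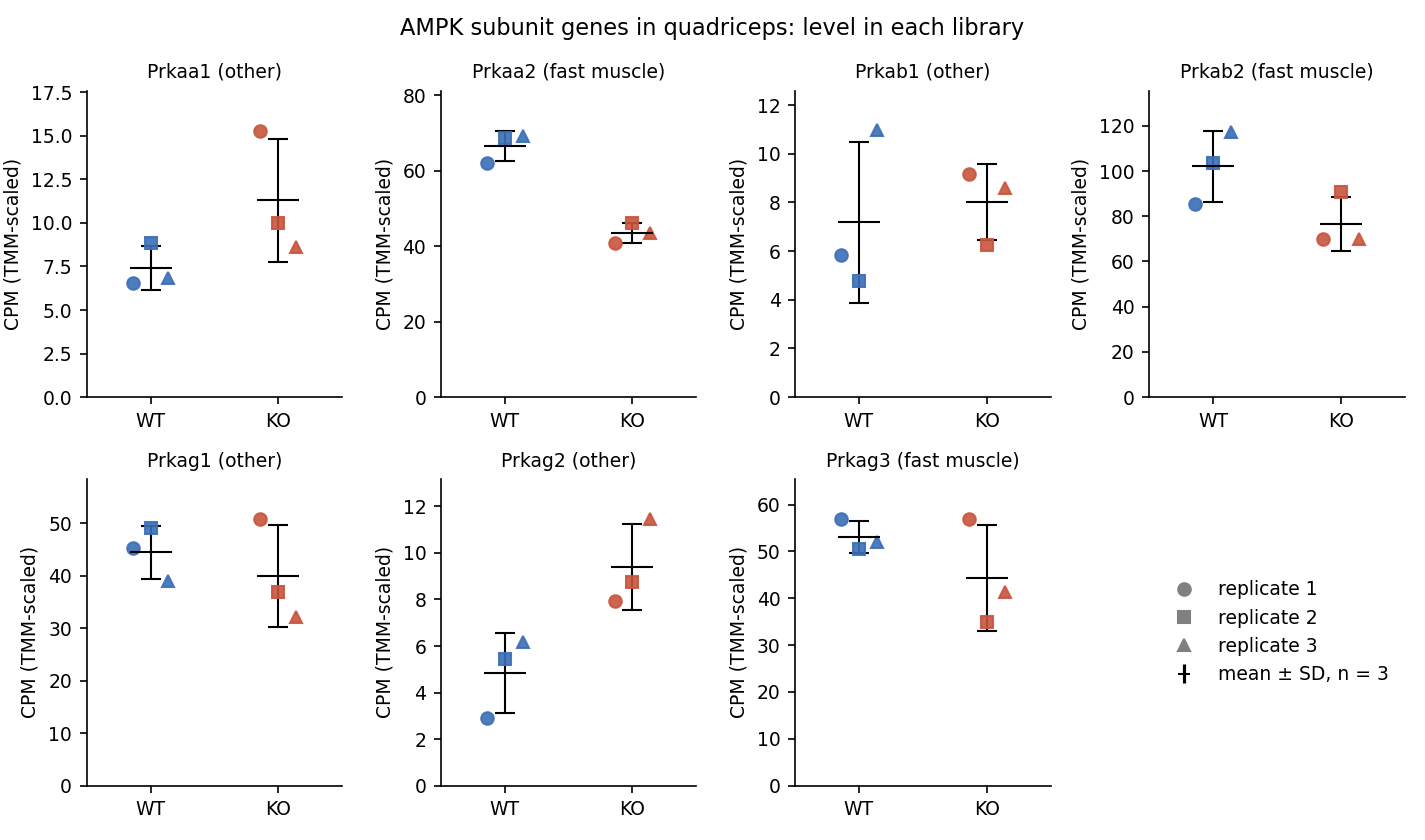
Level of each AMPK subunit gene in every library, in CPM on axes that start at 0, with WT in blue, KO in red, marker shapes for replicates and black bars for the mean ± SD (n = 3). The 3 KO libraries of Prkaa2 (41.0 to 46.2 CPM) lie below the 3 WT libraries (62.0 to 69.1 CPM), and the 3 KO libraries of Prkag2 lie above those of WT.

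The catalytic subunit Prkaa2 (ENSMUSG00000028518, GRCm38 chromosome 4, 105029874 to 105109890, minus strand, protein coding) stood at 62.0, 68.8 and 69.1 CPM in the WT libraries and at 41.0, 46.2 and 43.5 CPM in the KO libraries. Every KO library was below every WT library, and within each genotype the libraries lay close together. The mean went from 66.7 ± 4.03 to 43.6 ± 2.61 CPM, to 0.654 of the WT level in the fit (log2 fold change -0.61, SE 0.16, 95% interval -0.95 to -0.28, edgeR adjusted p = 0.0334). The call needed all 6 libraries. Leaving out any 1 of them kept the log2 fold change between -0.69 and -0.57 but moved the edgeR adjusted p to between 0.0529 and 0.129. DESeq2 gave -0.63 (adjusted p = 0.113) and library totals gave -0.38 (edgeR adjusted p = 0.152), both without a call.

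The other catalytic gene, Prkaa1 (ENSMUSG00000050697, chromosome 15, 5143861 to 5181899, plus strand), is the widely expressed alpha isoform outside striated muscle. It had 9, 13 and 10 reads in WT and 25, 16 and 15 in KO, or 6.57, 8.86 and 6.85 CPM against 15.3, 9.99 and 8.59 CPM. KO replicate 1 was the highest, and KO replicate 3 lay below WT replicate 2, so the groups overlapped. The log2 fold change was 0.59 (SE 0.34, 95% interval -0.14 to 1.32, edgeR adjusted p = 0.373), an interval that runs from a small fall to more than a doubling.

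The longest coding sequences of the 2 catalytic genes share 71.2% of 1629 aligned bases, and the longest identical run is 35 bases. The untranslated parts of the transcripts were not compared. Both encode the kinase activation loop, whose threonine is phosphorylated by upstream kinases to switch the kinase on. The coding strand around that codon is shown for both genes (GENCODE M21 transcripts, GRCm38) because it encodes the same residues in both. Capitals mark the threonine codon, residue 183 in the Prkaa1 reading frame and 172 in that of Prkaa2. Both stretches lie in exon 5 of 9, at chr15:5169940-5169996 (plus strand) and chr4:105049354-105049410 (minus strand).
Prkaa1: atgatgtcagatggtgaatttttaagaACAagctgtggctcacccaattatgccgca
Prkaa2: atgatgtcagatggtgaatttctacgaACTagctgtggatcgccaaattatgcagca
The 57 bases differ at 7 positions and encode the same residues. All 5 pairs of subunit genes within a family shared between 66.0% and 73.4% of aligned coding bases, with identical runs of at most 35 bases, so none is a near-identical copy of another.

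As a share of alpha reads, Prkaa2 made up 90.4, 88.6 and 91.0% in the WT libraries and 72.8, 82.2 and 83.5% in the KO libraries. The exact (Clopper-Pearson) 95% interval was 81.3 to 93.8% for the lowest WT library and 74.3 to 90.5% for the highest KO library. The groups did not overlap, although the counting intervals of single libraries did. The mean share was 90.0 ± 1.25% in WT and 79.5 ± 5.83% in KO, 10.5 percentage points lower, and without KO replicate 1 the difference was -7.13 points. A share cannot say which gene moved, and here a lower Prkaa2 and a higher, uncalled Prkaa1 both enter it. The summed alpha level was 68.6, 77.7 and 76.0 CPM in WT muscle and 56.3, 56.2 and 52.1 CPM in KO, so it too was lower in every KO library.

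**Figure D2:**
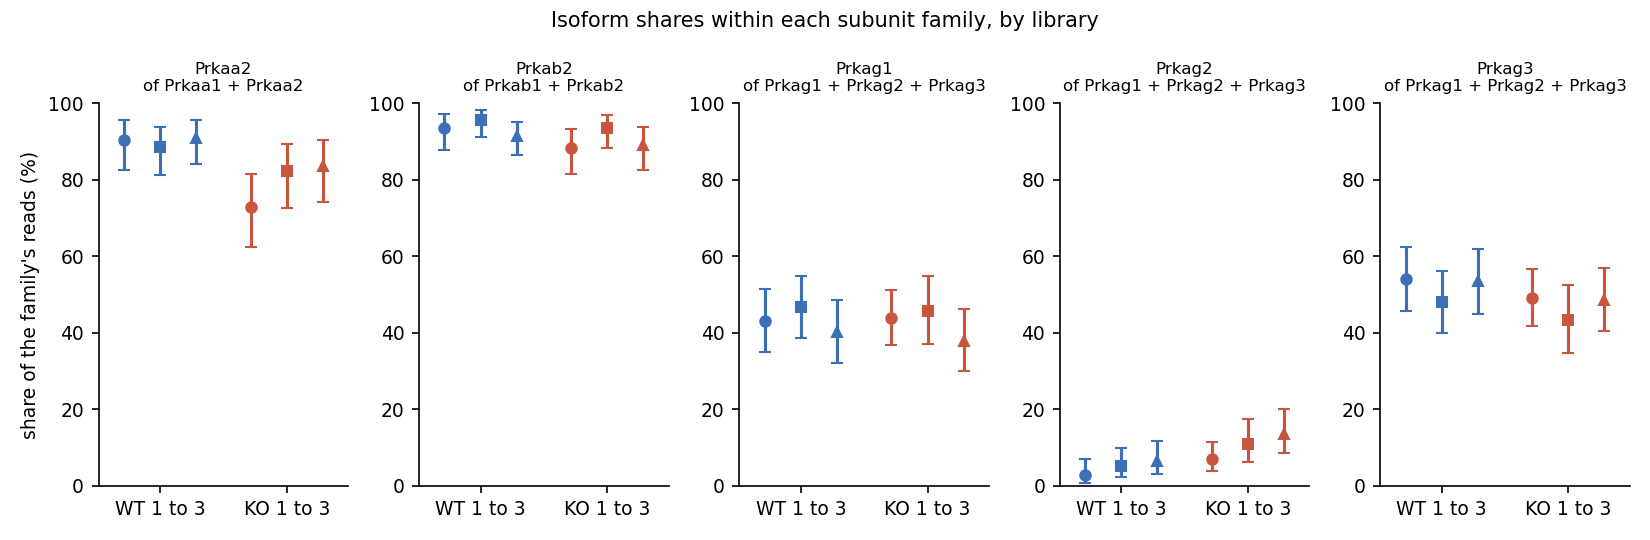
Share of each subunit family's reads taken by Prkaa2, Prkab2, Prkag1, Prkag2 and Prkag3 in every library (percent, WT blue, KO red), with exact 95% intervals that cover counting error only. The Prkaa2 share is lower in the 3 KO libraries (72.8 to 83.5%) than in the 3 WT libraries (88.6 to 91.0%), while the Prkag3 shares overlap.

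Of the scaffold subunits, Prkab2 (ENSMUSG00000038205, chromosome 3, 97658193 to 97673812, plus strand) had more reads than any other member, with 117, 152 and 171 reads in WT and 114, 145 and 122 in KO. Its level was 85.4, 104 and 117 CPM in the WT libraries and 69.8, 90.6 and 69.9 CPM in the KO libraries. KO replicate 2 was above WT replicate 1, and the other 2 KO libraries were below all WT libraries. The log2 fold change was -0.41 (SE 0.17, 95% interval -0.77 to -0.052), and the edgeR adjusted p was 0.184 over all genes. No alternative brought a call, with adjusted p between 0.103 and 0.535.

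Prkab1 (ENSMUSG00000029513, chromosome 5, 116013586 to 116024508, minus strand), the beta isoform that predominates in liver, was read 8, 7 and 16 times in WT and 15, 10 and 15 times in KO. Its level was 7.19 ± 3.31 CPM in WT muscle and 8.01 ± 1.55 CPM in KO muscle (log2 fold change 0.15, 95% interval -0.66 to 0.97, edgeR adjusted p = 0.876). WT replicate 3 was the highest library of all 6, and at this depth the interval runs from a fall to a rise. The smallest change that could be called for this gene was not established. Prkab2 took 93.5 ± 2.08% of beta reads in WT and 90.3 ± 2.81% in KO, and the groups overlapped.

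Among the gamma subunits, the fast glycolytic isoform Prkag3 (ENSMUSG00000006542, chromosome 1, 74738922 to 74749221, minus strand) stood at 56.9, 50.4 and 52.0 CPM in the WT libraries and at 56.9, 35.0 and 41.2 CPM in the KO libraries. KO replicate 1 matched the highest WT library, and the other 2 KO libraries were below all WT libraries. The KO libraries were therefore the more spread (44.4 ± 11.3 against 53.1 ± 3.37 CPM), and the gene did not pass (log2 fold change -0.26, SE 0.20, 95% interval -0.68 to 0.16, edgeR adjusted p = 0.518). Leaving out KO replicate 1 gave a log2 fold change of -0.47 (edgeR adjusted p = 0.197) and leaving out KO replicate 2 gave -0.12 (0.820).

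KO replicate 2, the library with the least Prkag3, also held the most slow-fibre transcript. The 9 slow-fibre markers summed to 451, 356 and 65.0 CPM in the WT libraries and to 329, 1418 and 109 CPM in the KO libraries. None of them was at 0 in all libraries, 8 were tested, and 0 rose or fell. Prkag3 in the same libraries stood at 56.9, 50.4 and 52.0 CPM in WT and 56.9, 35.0 and 41.2 CPM in KO, which is not the reverse order. The part of these markers in the Prkag3 values was not tested.

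Prkag1 (ENSMUSG00000067713, chromosome 15, 98812797 to 98831521, minus strand), the broadly expressed gamma isoform, stood at 45.2, 49.1 and 39.0 CPM in WT muscle and 50.8, 36.9 and 32.1 CPM in KO, with overlapping groups (log2 fold change -0.16, 95% interval -0.60 to 0.28, edgeR adjusted p = 0.737). KO replicate 1 was the highest library and KO replicate 3 the lowest.

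Prkag2 (ENSMUSG00000028944, chromosome 5, 24862744 to 25100642, minus strand), known for mutations that cause a glycogen-storing heart disease, had 4, 8 and 9 reads in WT, the fewest of the members there, and 13, 14 and 20 in KO. Its level was 2.92, 5.45 and 6.16 CPM in WT muscle and 7.95, 8.74 and 11.5 CPM in KO. All 3 KO libraries were above all WT libraries, yet the gene did not pass (log2 fold change 0.94, SE 0.38, 95% interval 0.13 to 1.74, edgeR adjusted p = 0.177). Across alternatives its adjusted p ran from 0.0556 (library totals) to 0.525 (DESeq2). Its share of gamma reads was 2.78 to 6.34% in the WT libraries and 6.88 to 13.5% in the KO libraries, a description over few reads. Prkag3 took 51.9 ± 3.36% of gamma reads in WT and 47.1 ± 3.20% in KO, and Prkag1 took 43.3 ± 3.31% and 42.5 ± 4.14%, both with overlapping groups.

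**Figure D3:**
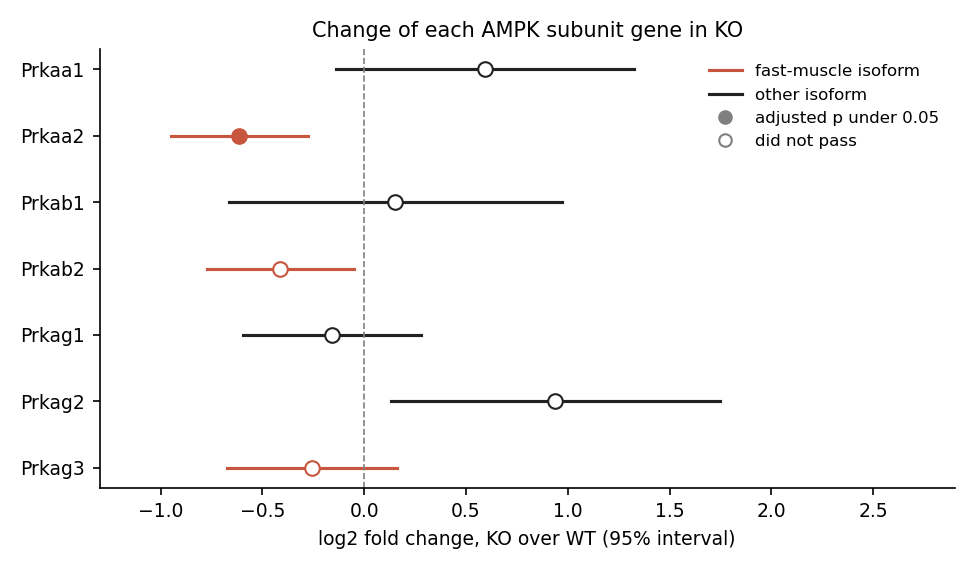
Log2 fold change of each subunit gene, KO over WT, with its 95% interval from the edgeR fit; red marks fast-muscle isoforms, black the other isoforms, and a filled point an adjusted p under 0.05. The filled point is Prkaa2 at -0.61, and the widest intervals belong to Prkab1, Prkag2 and Prkaa1, the members with the fewest reads.

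Set side by side, the 3 fast-muscle isoforms summed to 204, 223 and 238 CPM in the WT libraries and to 168, 172 and 155 CPM in the KO libraries, with every KO library below every WT library. The other 4 isoforms summed to 60.6, 68.2 and 63.0 CPM in WT muscle and 83.2, 61.8 and 60.7 CPM in KO, and there the groups overlapped. The ratio of the sums, which does not depend on library scaling, was 3.37, 3.27 and 3.78 in WT and 2.01, 2.78 and 2.55 in KO. It was lower in all 3 KO libraries (2.45 ± 0.39 against 3.48 ± 0.27). No p is attached to these sums, because the members were chosen with earlier results of these data known. Prkab2 gave the largest part of the fast sum in each WT library and Prkaa2 was its one called member, so the sum does not show that the 3 genes moved alike.

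Levels of different genes are compared here in CPM and per kilobase of transcript. In CPM the order of the WT means was Prkab2 (102), Prkaa2 (66.7), Prkag3 (53.1), Prkag1 (44.4), Prkaa1 (7.42), Prkab1 (7.19) and Prkag2 (4.84). A nanopore read stands for about 1 amplified cDNA copy, not 1 original molecule, since PCR was used. Dividing by length may overcorrect, and whether these counts scale with length was not tested. Per kilobase of the longest annotated coding transcript, the WT order was Prkag1 (26.9 ± 3.07 CPM per kb), Prkab2 (20.4 ± 3.18), Prkag3 (18.8 ± 1.19), Prkaa2 (8.37 ± 0.51), Prkab1 (3.44 ± 1.58), Prkaa1 (1.59 ± 0.27) and Prkag2 (1.45 ± 0.51). Prkab2 and Prkag3 overlapped between WT libraries, as did Prkaa1 and Prkag2, and the other neighbours did not. In KO the order on this per-kilobase scale put Prkag3 (15.7 ± 3.99) beside Prkab2 (15.3 ± 2.39) and Prkag2 (2.82 ± 0.55) beside Prkaa1 (2.43 ± 0.76), each pair overlapping, as did Prkag1 with Prkag3 and Prkab1 with Prkag2. On this scale Prkaa2 took 84.0 ± 1.86% of the alpha level in WT and 69.6 ± 7.47% in KO, and the ratio of fast-muscle to other isoforms was 1.43 ± 0.13 in WT and 1.11 ± 0.13 in KO, still with no overlap.

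Prkaa2 has the longest transcript of the 7 genes, at 7969 bases. Genes with a coding transcript of at least 7 kb took 3.20 to 3.63% of reads in WT libraries and 2.76 to 3.08% in KO libraries, which did not overlap. Of the 288 tested genes of 7 to 9 kb, 15 were called lower (5.21%) and 4 higher (1.39%), against 3.28% and 2.97% of all tested genes with a coding transcript, and the median log2 fold change was -0.026. The part of transcript length in the Prkaa2 result was not tested.

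The fall of Prkaa2 was seen in muscle where fast-fibre transcripts were lower as well. Of the 10 fast-fibre markers, 5 fell (Myh4, Mylpf, Tnnc2, Myl1 and Pvalb) and 0 rose, against 3.28% and 2.98% of all tested genes. The median log2 fold change of the 10 markers was -0.66, against 0.017 for all tested genes and -0.61 for Prkaa2. The markers summed to between 177147 and 225057 CPM in WT libraries and between 121850 and 139862 CPM in KO libraries. Their part in the Prkaa2 result was not tested. Myh2, the marker of oxidative type IIA fibres, was at 442, 596 and 135 CPM in WT and 69.8, 352 and 89.9 CPM in KO. It did not pass, and its groups overlapped (log2 fold change -1.20, edgeR adjusted p = 0.580). In bulk muscle, fewer fibres of a type and less RNA per fibre cannot be told apart. Among markers of other cell types, the tested ones were 6 of 6 for fibroblasts, 4 of 5 for endothelium, 5 of 5 for smooth muscle and pericytes, 2 of 5 for macrophages and leukocytes, 3 of 4 for adipocytes, 3 of 3 for blood and 3 of 4 for Schwann cells. None of the tested ones was called in either direction, and none of these markers, tested or not, stood at 0 in all libraries. The summed levels of each of these 7 lists overlapped between the genotypes, as with 1348 to 2166 CPM (WT) and 1340 to 2124 CPM (KO) for fibroblast genes.

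Genes whose level over the 6 libraries was most like that of Prkaa2 were Map3k20, a stress-activated kinase (Pearson r of log2 CPM = 0.996), Idh3a, a subunit of the mitochondrial isocitrate dehydrogenase (0.993), and Pdlim5, a Z-disc scaffold (0.991). All 3 were themselves called lower in KO, at log2 fold changes of -1.15, -0.34 and -1.17. They were picked for following Prkaa2, whose libraries separate by genotype, so a lower level in KO came with the choice. For Prkab2 the nearest were Cfl2, a muscle cofilin (r = 0.966), Ndufs7, a complex I subunit (0.963), and Kitl, a growth factor (0.962), and none of them was called. For Prkag3 they were Cavin4, a muscle caveolar coat protein (r = 0.979), Srpr, a receptor of the signal recognition particle (0.973), and Lamtor3, a lysosomal scaffold (0.955), again with 0 calls. These likenesses are over 6 libraries that share 1 genotype contrast and are given as a description.

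The upstream sequences of the fast-muscle alpha and gamma genes are shown because the series title names MEF2C, and because they are unlike in base composition. The 250 bases before each start site are from RefSeq on GRCm38.p6, written 5′ to 3′ on the strand of the gene, at chr4:105109899-105110148 (Prkaa2, minus strand) and chr1:74748956-74749205 (Prkag3, minus strand). Capitals mark an E-box, CANNTG, the 6-letter site of myogenic basic helix-loop-helix factors.
Prkaa2: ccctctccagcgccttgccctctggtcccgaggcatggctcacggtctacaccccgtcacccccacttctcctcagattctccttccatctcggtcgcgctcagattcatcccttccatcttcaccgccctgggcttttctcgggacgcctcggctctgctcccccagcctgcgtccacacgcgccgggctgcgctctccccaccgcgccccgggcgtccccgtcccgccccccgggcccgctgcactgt
Prkag3: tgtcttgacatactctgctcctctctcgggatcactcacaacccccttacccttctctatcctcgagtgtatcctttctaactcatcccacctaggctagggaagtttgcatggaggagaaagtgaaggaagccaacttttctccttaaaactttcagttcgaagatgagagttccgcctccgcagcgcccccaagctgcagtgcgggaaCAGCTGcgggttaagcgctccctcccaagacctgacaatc
Over the 300-base windows that also hold the first 50 transcribed bases, G and C made up 72.7% for Prkaa2 and 54.0% for Prkag3, against a median of 52.7% over 32851 RefSeq promoter windows. All 7 members had an entry, in 9 windows, since Prkag2 has 3 start sites. On both strands, 5 of the 9 windows held an E-box, which 72.3% of all windows hold, and 0 of the 9 held a MEF2 box, which 3.19% of all windows hold. A missing match says only that these letters are not in this window.

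Around the kinase itself, 73 genes of the AMPK pathway were followed in 6 lists, and 45 were deep enough to test. Of these, 3 were higher and 2 lower in KO, against 2.98 and 3.28% of all tested genes, and 40 did not pass. Their median log2 fold change was -0.083, against 0.017 for all tested genes. With library totals 6 were higher and 1 was lower.

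Of the upstream kinases and partners, 0 of 5 tested genes passed. Stk11 encodes LKB1, the main kinase of the AMPK activation loop in muscle, and stood at 10.5 ± 1.46 CPM in WT muscle and 15.6 ± 2.15 CPM in KO muscle, where all 3 libraries were above those of WT (log2 fold change 0.57, edgeR adjusted p = 0.272). Cab39l, an LKB1 scaffold, had overlapping groups (-0.37, edgeR adjusted p = 0.478). Camkk2, the calcium-dependent AMPK kinase, had at most 6 reads in a library and was not tested.

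Among 5 tested modulators 1 rose. Cidea, a lipid droplet protein reported to bind the beta subunit, had 1, 0 and 2 reads in WT and 17, 14 and 19 in KO. Its WT libraries were all under the minimum count of 10, so it was tested only through its KO libraries, and it counts among the 3 pathway genes called higher. The ratio of pooled levels was 14.4, with an exact 95% counting interval of 4.65 to 72.1 (edgeR adjusted p = 0.00104). Flcn, folliculin, an inhibitory partner of the pathway, stood at 13.1, 17.0 and 8.90 CPM in WT muscle and 15.3, 32.5 and 31.5 CPM in KO and did not pass (log2 fold change 1.02, edgeR adjusted p = 0.0822). Flcn was called with library totals (edgeR adjusted p = 0.0259), with no filter (0.00784) and without KO replicate 1 (0.0101). Of the AMPK-related kinases only Snrk was tested of 13, and it did not pass (-0.56, edgeR adjusted p = 0.180), though all KO libraries lay below those of WT.

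Among metabolic substrates of AMPK, 2 of 10 tested genes rose and 1 fell. Tbc1d1, a Rab GTPase-activating protein that restrains glucose transporter traffic until AMPK phosphorylates it, was at 36.5, 34.1 and 37.0 CPM in WT muscle and 17.1, 16.2 and 16.0 CPM in KO. The KO libraries lay far below those of WT with little spread in either genotype (log2 fold change -1.12, SE 0.20, edgeR adjusted p = 0.00359). Pfkfb3, which makes the activator of phosphofructokinase, rose from 7.49 ± 2.42 to 28.8 ± 12.4 CPM (log2 fold change 1.95, edgeR adjusted p = 0.00620). It had 13, 12 and 7 reads in WT and 28, 44 and 73 in KO. WT replicate 3 was under the minimum count of 10, so Pfkfb3, like Cidea, was tested only through its KO libraries. Gys1, muscle glycogen synthase, was at 147, 171 and 184 CPM in WT muscle and 248, 233 and 228 CPM in KO muscle (log2 fold change 0.50, edgeR adjusted p = 0.0321). The Tbc1d1 and Pfkfb3 calls were made in all 15 alternatives, and that of Gys1 was lost in 6, with DESeq2 (adjusted p = 0.110) and without any 1 library except WT replicate 3 (edgeR adjusted p up to 0.195).

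Of 13 tested substrates in growth, autophagy and transcription 1 fell. Foxo1, a transcription factor of the fasting and atrophy programme, was at 13.9, 20.4 and 28.1 CPM in WT muscle and 8.57, 7.50 and 10.9 CPM in KO muscle (log2 fold change -1.20, edgeR adjusted p = 0.0337). In 8 of 15 alternatives Foxo1 did not pass (adjusted p up to 0.149). Hdac4, a class IIa deacetylase and MEF2 repressor, did not pass (1.07, edgeR adjusted p = 0.0768), but passed with library totals (0.0260), no filter (0.00981) and without WT replicate 1 (0.0358). Of 12 tested genes whose level is known to follow AMPK activity in muscle, 0 passed. The smallest p-values were those of Tfeb, a lysosomal transcription factor (-0.71, edgeR adjusted p = 0.0931), and Nampt, an enzyme of NAD synthesis (-0.53, edgeR adjusted p = 0.0935), and all KO libraries lay below those of WT for both. Ppargc1a, the coactivator of mitochondrial genes, had overlapping groups (-0.33, edgeR adjusted p = 0.514).

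**Figure D4:**
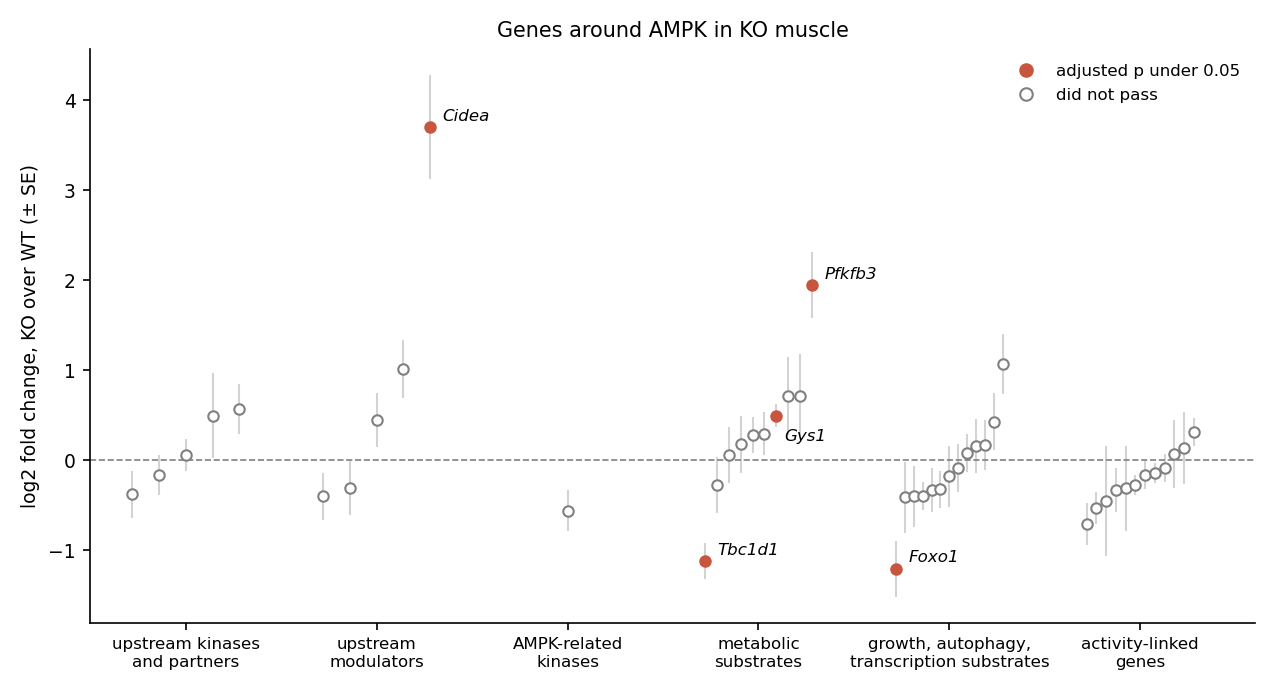
Log2 fold change (KO over WT, with its SE) of each tested gene in the 6 AMPK pathway lists, 1 point per gene and list, filled red where the adjusted p was under 0.05. The 5 filled points are Cidea, Pfkfb3 and Gys1 above 0 and Tbc1d1 and Foxo1 below 0, among 40 genes that did not pass.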

How the data were processed

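RNA from quadriceps of 3 Prr14-WT and 3 Prr14-KO libraries, numbered 1 to 3 in accession order, was read as PCR-amplified nanopore cDNA, per the labels' protocols. Minimap2, DESeq2 1.6.3 and the build GRCm38 are named, per the submitters' processing notes. The sources used here do not give the read counter, annotation release or use of strand. The authors deposited whole-number read counts per Ensembl gene, not normalized, per the file headers, and CPM of the same genes, which were not used beyond checking their unit. Symbols came by identifier for 22022 of 22036 genes.

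The test was run with edgeR 4.0.16 under R 4.3.3. It used filterByExpr with genotype as group (minimum count 10, minimum total 15), TMM, and the robust quasi-likelihood test of KO against WT with Benjamini-Hochberg adjustment at 0.05. The SE is the log2 fold change divided by the square root of F. The steps were checked on simulated counts. Alternatives used DESeq2 1.42.0, limma 3.58.1 (voom), other scalings and filters, and each library left out. The 7 members, the pathway and marker lists and the rule for named genes (list genes that passed and, where fewer than 2 of a list did, those of smallest p up to 2; the 3 genes of highest Pearson r with each fast-muscle isoform, log2 CPM with prior count 2, mean at least 50 CPM) were chosen with earlier results of these data known. Camkk2, Ppargc1a, Myh2 and the 5 fast-fibre markers that fell were named after their values were seen. Coding sequences were aligned with Biopython 1.88. Reads carry no molecular identifiers. The exact intervals of the shares and of the Cidea ratio cover counting error only. Those of log2 fold changes come from the edgeR fit and also cover the spread between libraries. A count of 3 equals 1.72 to 2.19 CPM, depending on the library. Reads of overlapping antisense genes could not be told apart without strand: 5 members overlap such a gene in GENCODE M21, and Prkaa2 and Prkag3 overlap none.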

Additional observations from a re-analysis of the deposited data

How the results depend on the processing

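The direction of Prkaa2 was the same in all 15 alternatives and the call was made in 7. It was lost with library totals (log2 fold change -0.38), DESeq2 (-0.63) and each library left out (-0.69 to -0.57), so 1 subunit gene was called in 7 alternatives, 0 with library totals, 0 with DESeq2 and 0 with each library left out. None of the other 6 subunit genes was called in any alternative. Prkag1 changed sign with library totals (0.078), and Prkab1 without WT replicate 1 or 2 (-0.11 to 0.59 over the libraries left out). The number of genes called was 801 with library totals, 706 with no filter and 237 to 363 with a library left out. In place of 5, the number of pathway genes called was 7 with no filter, 7 with library totals, 3 with DESeq2 and 3 to 5 with a library left out (3 when that was WT replicate 2 or either of KO replicates 2 and 3). The cause of these changes was not tested, beyond the smaller number of libraries where 1 was left out. Per kilobase of transcript the difference in the Prkab2 share was -6.19 percentage points in place of -3.22, and that in the ratio of fast-muscle to other isoforms -0.31 in place of -1.03; the alternatives for that ratio were chosen after seeing the data. No share or ratio changed sign with a library left out. No paired analysis was possible because the replicate numbers follow accession order and the titles of the genotypes share only 1 number. Prkaa1, Prkab1 and Prkag2 had 4 to 25 reads per library, which limits their intervals.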
